A study of Mus musculus with 62 samples.

Results

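Chromatin marks were examined at 10 genes of the sarcomere, the contractile unit of striated muscle, and of its energy and oxygen supply. The genes were Acta1, Actc1, Actn2, Actn3, Ttn, Neb, Ckm, Mb, Mylpf and Myom2. Their regions were those that the authors' annotation assigned to one of the 10 genes as the nearest transcription start site (TSS), in 16 histone peak lists and 4 lists of modified regions. This gave 710 of 601616 listed regions. Of these, 359 of 297760 peaks were in the 8 lists of H3K27ac (acetylation of lysine 27 on histone 3, found where enhancers and promoters are active) and 341 of 298522 in the 8 lists of H3K4me2 (dimethylation of lysine 4 on histone 3, found at enhancers and promoters whether active or poised). Of the remainder, 9 regions had less H3K27ac after exercise and 1 had more H3K27ac in Pgc1a transgenic muscle, as the authors called them.

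The study profiled skeletal muscle of male C57BL/6 mice, and 8 groups with 2 ChIP-seq libraries for each mark enter here. In the first 4 groups, all sedentary and wild type, the muscles were extensor digitorum longus (EDL), quadriceps (Quad), soleus (Sol) and diaphragm (Dia). The other groups were quadriceps of sedentary (Sed) and wheel-running (Ex) wild-type young adults, and of wild-type littermates (Wt) and transgenic mice (mTg) that were both sedentary. The Ex mice ran voluntarily for several weeks and were sampled some hours after their last bout, and the mTg mice carry Pgc1a under the muscle creatine kinase promoter, that is, the promoter of Ckm itself. An EDL, Sol or Dia sample pooled the muscles of several animals and a Quad sample was 1 muscle of 1 animal. The paper calls the duplicates of the first 4 groups biological. The labels number the replicates without naming animals, so the spread between replicates was not split into animal and technical parts.

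In the sarcomere, thin filaments of actin slide along thick filaments of myosin. Acta1 encodes the actin of adult skeletal muscle and Actc1 the cardiac actin that skeletal muscle uses mainly before birth, while Neb encodes nebulin, a very long protein that runs along the thin filament. The alpha-actinins cross-link thin filaments at the Z disc, with Actn2 made in all fibers and the heart and Actn3 in fast glycolytic fibers. Ttn encodes titin, which spans from the Z disc to the M band, and Myom2 encodes M-protein, an M-band protein of fast fibers. Mylpf encodes the regulatory light chain of fast myosin. Ckm encodes the muscle creatine kinase that buffers ATP, and Mb encodes myoglobin, the oxygen store that is most abundant in slow and oxidative fibers. EDL and quadriceps are largely glycolytic, while soleus and diaphragm are richer in oxidative fibers.

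The sequences below carry the regions to which the results return. The first pair are the 250 bases before the start sites of Ckm and Acta1 (RefSeq, GRCm38.p6), shown because both promoters lie within H3K27ac peaks that rank high in their lists. The next 4 are peaks of transposase-accessible chromatin (ATAC) in Quad, read from the mm10 genome. In order, they lie just upstream of Actn2, in the hyperacetylated Mb region of mTg muscle, and at a Mb site with MED1 in Sol. The last lies in the Myom2 intron with less H3K27ac in Ex and in Sol. All but the Mb site with MED1 are in regions which differ between groups. Capitals mark the words CAGCTG (an E-box), CATTCC (an MCAT element), TCAGGTT (bound by Sine oculis homeobox factors), AGGTCA (a nuclear receptor half-site), and the CArG box of SRF, on either strand. No MEF2 site was found in these 6 sequences.

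Ckm promoter, chr7:19410844-19411093, plus strand: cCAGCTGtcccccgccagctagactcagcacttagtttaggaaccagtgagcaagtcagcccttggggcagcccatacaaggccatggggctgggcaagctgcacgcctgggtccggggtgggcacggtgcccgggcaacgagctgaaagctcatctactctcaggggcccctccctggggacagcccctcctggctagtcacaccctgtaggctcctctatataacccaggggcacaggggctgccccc
Acta1 promoter, chr8:123894776-123895025, minus strand: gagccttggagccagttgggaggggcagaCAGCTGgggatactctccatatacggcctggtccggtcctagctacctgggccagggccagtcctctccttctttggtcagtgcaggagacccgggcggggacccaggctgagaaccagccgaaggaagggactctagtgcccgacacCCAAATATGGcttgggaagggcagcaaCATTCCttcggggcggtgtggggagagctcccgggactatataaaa
Actn2 upstream ATAC peak, chr13:12340740-12340934, plus strand: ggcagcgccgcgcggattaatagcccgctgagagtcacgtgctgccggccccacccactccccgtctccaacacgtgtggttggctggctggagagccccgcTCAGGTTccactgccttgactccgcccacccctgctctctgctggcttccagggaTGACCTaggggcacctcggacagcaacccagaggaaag
Mb ATAC peak in the hyperacetylated region, chr15:77009039-77009233, plus strand: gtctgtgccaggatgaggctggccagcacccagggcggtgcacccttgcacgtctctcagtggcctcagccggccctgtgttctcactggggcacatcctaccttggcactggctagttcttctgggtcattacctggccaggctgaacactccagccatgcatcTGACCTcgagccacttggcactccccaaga
Mb ATAC peak overlapping MED1 in Sol, chr15:77015006-77015200, plus strand: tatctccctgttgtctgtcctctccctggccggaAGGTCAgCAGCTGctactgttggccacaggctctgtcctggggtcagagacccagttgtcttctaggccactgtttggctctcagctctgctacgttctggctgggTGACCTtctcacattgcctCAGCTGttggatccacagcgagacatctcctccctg
Myom2 intron ATAC peak, chr8:15072937-15073131, plus strand: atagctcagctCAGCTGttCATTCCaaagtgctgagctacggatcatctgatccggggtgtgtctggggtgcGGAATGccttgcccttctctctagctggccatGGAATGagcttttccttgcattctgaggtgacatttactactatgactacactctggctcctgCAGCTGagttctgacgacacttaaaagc

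Depth and cell markers set the frame for what follows. Total tags ranged from 6.41 M (mega) to 24.2 M in the 32 ChIP libraries and from 7.72 M to 22.9 M in the 11 inputs, with the lowest value in an mTg H3K4me2 library. Peaks of fast fiber markers were found in every H3K27ac list (4 or 5 of 5 genes). All 5 slow markers had a peak in Sol and Dia, and 2 or 3 of 5 in the other lists, where Myh7 and Tnnc1 had none. Of 3 cardiac genes, Myh6 and Nppa had no peak in any list, while Ryr2 had a peak in Quad, Sed, Wt and mTg. Endothelial and fibroblast markers had a peak for 3 of 3 genes in every list, so the tissue was not fiber nuclei alone. In such bulk tissue, fewer nuclei of a fiber type and less mark per nucleus cannot be told apart.

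The genes carried many peaks, most of them away from the promoter. Ttn, a gene of 279 kb, had 5 to 34 H3K27ac peaks per list and Acta1, a gene of 3.02 kb, had 3 to 9. Mylpf had a single H3K27ac peak in each list and Ckm had 1 or 2, yet that peak was up to 8.86 kb wide at Mylpf and up to 11.9 kb at Ckm. Actc1 had at most 1 peak and none in Sol or mTg. Introns held 59.9% of the genes' H3K27ac peaks (49.4% of all peaks) and promoters 4.18% (12.5% of all). The median width of the genes' H3K27ac peaks was above that of the whole list in 7 of the 8 groups, with 2504 against 1551 bp in Quad, and below it in Wt (1014 against 1250 bp).

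The naming by nearest TSS has limits at these loci. Of the 103 H3K27ac peaks named Ttn, 30 lay within the neighboring gene Ccdc141, and of the 46 named Acta1, 23 lay within Nup133. A peak overlapped the promoter window (250 bases before to 50 after a start site) in 70 of 80 gene and list pairs for H3K27ac and in 58 of 80 for H3K4me2. At Neb no peak overlapped this window in any list of either mark. Its strongest H3K27ac peak was centered 4897 to 6216 bp into the gene in 7 lists and upstream, at -19539 bp, in Sol. In Ex, the peak over the Mylpf start bore the name of the neighbor Tbc1d10b, so the small peak named Mylpf in that list is not the promoter peak.

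The peaks were shared between muscles about as often as any. Merged over EDL, Quad, Sol and Dia, the genes had 55 H3K27ac regions, of which 24 were called in all 4 muscles (43.6%, against 37.4% of all 51592 merged regions). For H3K4me2 it was 19 of 64 regions (29.7%, against 39.6%). An H3K4me2 peak of the same group overlapped 223 of the 359 H3K27ac peaks, against 60.6% of all H3K27ac peaks.

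H3K27ac stood higher in its lists at these genes than H3K4me2 did. Levels are log2 tags per kb of peak, and each is given with its percentile in its own list, because the lists were normalized one by one. Input was not subtracted from them. The strongest H3K27ac peak of a gene stood at or above the 90th percentile in 45 of 78 gene and list pairs, with a median percentile of 91.8. For H3K4me2 only 5 of 77 did so, and the median was 66.0. Replicates lay close together, with a median SD of 0.11 for H3K27ac and 0.07 for H3K4me2. These strongest peaks were also among the widest, at a median width percentile of 95.7. Each is the highest of the peaks named for its gene. Strongest peaks of other genes were not ranked, so these shares have no background. Taken over all their peaks, the genes' median percentile ran from 35.4 in Wt to 72.3 in Sed for H3K27ac. For H3K4me2 it ran from 33.2 in Wt to 56.8 in Dia.

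**Figure D1:**
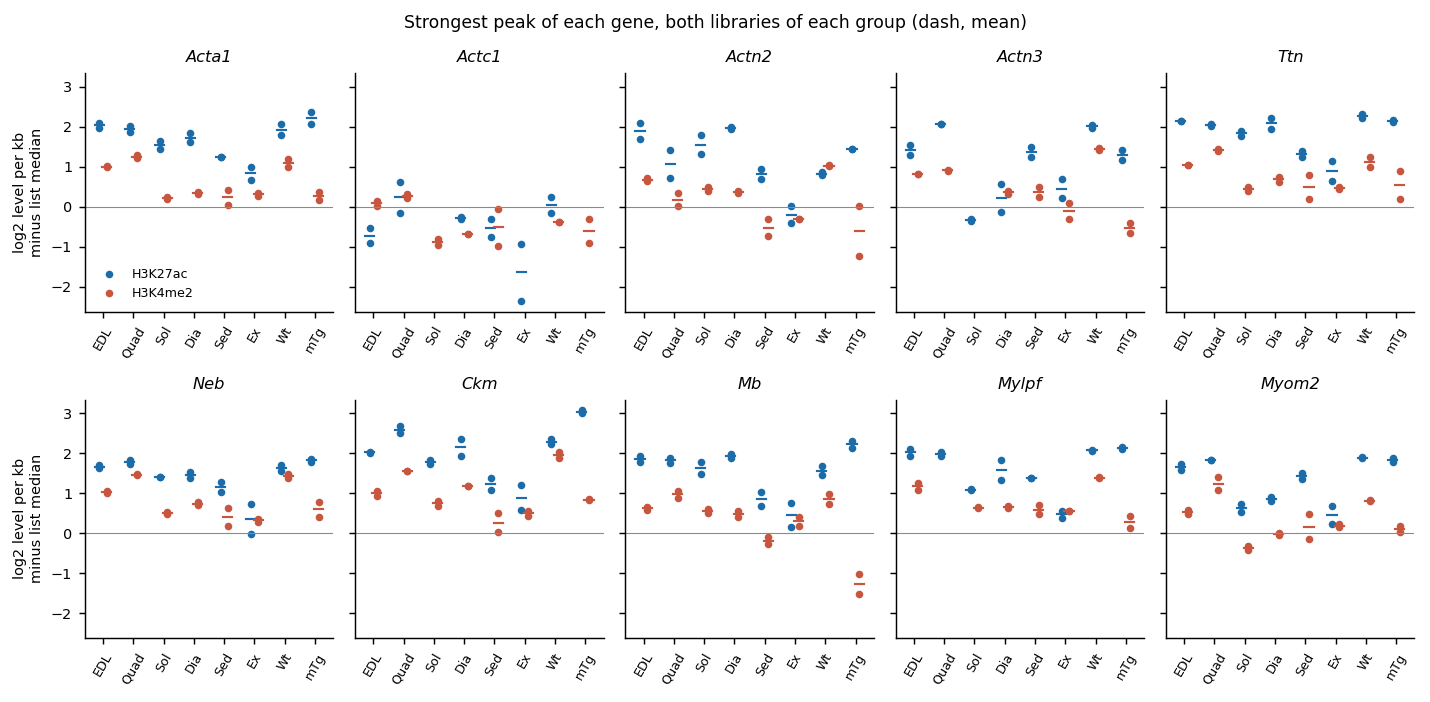
Level of the strongest H3K27ac (blue) and H3K4me2 (red) peak of each gene in the 2 libraries of each group, as log2 tags per kb minus the median of the list; dashes are means, and a missing point means no peak. For H3K27ac, Ex was the lowest group at 9 of the 10 genes (Actn3 was lowest in Sol), and Ckm was highest in mTg (3.05 and 3.00).

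Ckm and Ttn led the group, with the strongest taken from 1 or 2 peaks per list at Ckm and from 5 to 34 at Ttn. Their H3K27ac percentiles had medians of 97.8 and 97.5 over the 8 lists, and both were lowest in Ex, at 81.0. Acta1 (median 94.7), Mb (95.3), Mylpf (93.7), Myom2 (91.7) and Neb (90.5) followed, while Actn3 (85.6) and Actn2 (82.4) were spread more widely. Actn3 ranged from the 37.0th percentile in Sol to the 97.4th in Quad, and Actn2 from percentile 41.3 in Ex to 96.9 in Dia. Actc1 was the weakest, with a median at the 33.6th percentile and a lowest of 0.833 in Ex. Median percentiles over the genes with a peak were 96.5 in EDL, 95.7 in Quad, 94.9 in Sol, 93.0 in Dia, 88.2 in Sed, 68.3 in Ex, 94.2 in Wt and 95.6 in mTg. In Sol and mTg these are over 9 genes, since Actc1, the weakest, had no peak there. No gene reached the 90th percentile in Ex, whereas 3 of 10 did in Sed.

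The strongest peak was not always at the promoter. At Myom2 it lay far downstream in every H3K27ac list, centered 93827 to 94428 bp past the start and beyond the gene's end. At Acta1 it was a region between 11174 and 12721 bp past the start in 6 of the 8 lists, and the peak over the promoter in EDL and Wt.

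The muscles were compared next, asking whether the genes follow fiber type. Regions of 2 lists were matched at a reciprocal overlap of 50%, each library was centered on its median over all matched regions, and a region counted as over 2-fold apart where the means differed by over 1 on the log2 scale and the replicates did not overlap. With 2 against 2 libraries an exact permutation test cannot go below 1 in 3, so no p-value is given.

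The fast-fiber genes Actn3 and Myom2 had the widest gaps. At the Actn3 promoter region (chr19:4874060-4879316 in Quad), the centered H3K27ac levels were 1.38 and 1.35 in Quad and -0.72 and -0.77 in Sol, a difference of -2.16. Dia libraries stood at -0.63 and 0.06 against 1.32 and 1.31 in Quad (-1.64), and EDL lay above Sol by 1.73 and above Dia by 1.19. Quad and EDL thus held the high Actn3 levels and Sol the low, with no overlap between replicates. Levels without division by width differed more, by -2.70 for Sol against Quad, because the Sol peak was narrower (3662 against 5256 bp).

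Myom2 showed the same order at its 5' end. The region chr8:15054661-15067292 of Quad had centered levels of 1.14 and 0.98, against -0.10 and -0.62 for its match in Sol, a difference of -1.47. At the intronic region that contains the Myom2 sequence shown above, EDL libraries stood at 1.18 and 1.02 and Sol libraries at -0.72 and -1.02, a difference of 2.01. Sol was lower than Dia at the same intron by -1.20, a gap that shrank to -0.52 when levels were not divided by width.

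Actn2 was low in Quad, and other genes held a single divergent region. At the Actn2 promoter, Dia libraries were at 1.49 and 1.44 and Quad libraries at 0.68 and -0.03, a difference of 1.10, and an Actn2 region at -16838 bp differed by 1.30 between the same muscles. EDL exceeded Quad at the Actn2 promoter by 1.00, which passed the cut in only 2 of 4 fits that left out a library. EDL also lay above Sol at the 3 matched Actn2 regions, by 0.30, 0.32 and 0.36, with overlapping replicates (-0.31, -0.14 and 0.09 without division by width). A region centered at -26634 bp from the Neb start had -0.37 and -0.22 in Sol against -1.57 and -2.20 in Quad, a difference of 1.54, and 1.22 against Dia, the latter reduced to 0.23 without division by width. The Mb region that carries the hyperacetylation of mTg muscle was higher in Dia (0.62 and 0.52) than in Sol (-0.40 and -0.64), a Sol minus Dia difference of -1.09 that became -0.74 without division by width. At Acta1, a narrow region at -12598 bp was higher in EDL than in Quad by 1.15. Ckm, Mylpf, Ttn and Actc1 had no H3K27ac region over 2-fold apart between muscles, and their matched differences ran from -0.94 to 0.90. Without division by width, Ttn regions were over 2-fold apart in each of the 6 muscle pairs, 4 of them between EDL and Sol (from -1.72 to 1.25), and Mylpf was higher in EDL than in Sol by 1.06.

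**Figure D2:**
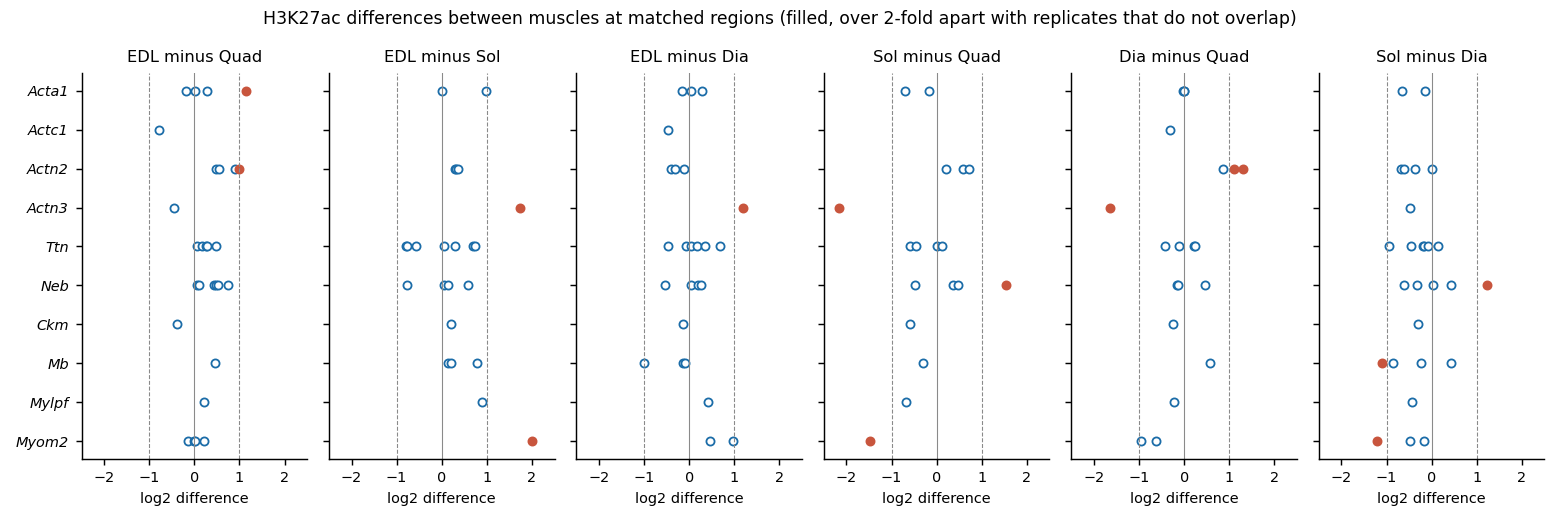
Differences in centered log2 H3K27ac level between muscles (x axis) at each matched region of the 10 genes (rows); dashed lines mark 1 on either side of 0, and filled points are over 2-fold apart with replicates that do not overlap. Actn3 and Myom2 lay low in Sol, with Sol minus Quad at -2.16 and -1.47.

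Most regions of the genes did not differ to this extent. For H3K27ac, 2 of 28 matched regions were over 2-fold apart between EDL and Quad (0.644% of all matched regions), 2 of 23 between EDL and Sol (2.88%), 1 of 25 between EDL and Dia (3.11%), 3 of 18 between Sol and Quad (3.74%), 3 of 20 between Dia and Quad (4.26%) and 3 of 27 between Sol and Dia (1.65%). These 14 calls fell to 2 at a reciprocal overlap of 80% and rose to 28 without division by width. At 80% fewer regions stayed matched, from 6 of 23 between EDL and Sol to 19 of 28 between EDL and Quad. The summed gene level of fast fiber markers (log2, centered on the genes with a peak in all lists) was 4.61 and 4.44 in Quad and 4.55 and 4.53 in EDL. It was 3.58 and 3.35 in Sol, and 4.54 and 4.54 in Dia, where Actn3 was low. The fast marker Tnnt3 had no peak in Quad or EDL but had one in Sol and Dia. Dia sums thus hold more genes and cannot be ranked against Quad or EDL. Slow markers were at 1.01 and 0.98 in Quad (3 of 5 genes with a peak), 1.13 and 0.93 in EDL (2 of 5), 4.33 and 4.13 in Sol (5 of 5) and 2.92 and 2.77 in Dia (5 of 5). Their part in these differences was not tested.

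For H3K4me2, 2 regions were over 2-fold apart between muscles, but 21 without division by width, against 14 and 28 for H3K27ac. Per kb, no region of the genes was over 2-fold apart between EDL and Quad (0 of 24, background 0.453%), EDL and Sol (0 of 18, 0.626%), EDL and Dia (0 of 19, 0.678%) or Sol and Quad (0 of 18, 1.88%, and 8 of 18 without division by width). One Myom2 region at the 5' end was lower in Dia (-0.99 and -1.02) than in Quad (0.30 and 0.14), the only one of 18 between these muscles (1.58%). One Ttn region, in the neighboring Ccdc141, was lower in Sol than in Dia, 1 of 23 (0.439%), by -1.19, or -0.33 without division by width. In Sol against Quad, 15 of 18 H3K4me2 regions were lower in Sol with a median difference of -0.53, against -0.09 for the matched regions at or above the 90th percentile.

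Exercise came with lower H3K27ac across the genes. All 19 matched regions, of 9 genes, were lower in Ex than in Sed, with a median difference of -0.83 (range -1.19 to -0.37), and at 16 of them both Ex libraries lay below both Sed libraries. Over all 18426 matched regions the median is 0 by construction, the libraries of the groups were apart at 56.7%, and those at or above the 90th percentile had a median of -0.07, with 61.3% of them lower in Ex. Ttn had no matched region, and its Sed peak of 12478 bp over the promoter was called in Ex as parts of 2083 and 5634 bp.

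Of these regions, 5 of 19 were over 2-fold apart (3.17% of all). At the Actn2 promoter, which contains the Actn2 sequence above, Sed libraries stood at 0.53 and 0.16 and Ex libraries at -0.56 and -0.80, a difference of -1.08. Actc1 was at -1.17 and -0.85 in Sed and at -1.49 and -2.73 in Ex (-1.15), with the Ex replicates far apart. Myom2 had 3 such regions, with -1.19 at the 5' end, -1.13 at 39218 bp and -1.03 at 94382 bp past the start. Actn3 missed the cut at -0.97, with 1.08 and 0.71 in Sed and 0.11 and -0.16 in Ex. Smaller gaps were found at Acta1 (-0.46 and -0.48), Mylpf (-0.37, at the peak named for its neighbor in Ex) and Ckm (-0.39). The second Ex library was the lower of the pair at each of the 5 regions. The count was 0 without it and 9 without the first, and 2 without the first and 9 without the second Sed library. Levels not divided by width gave 14.

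**Figure D3:**
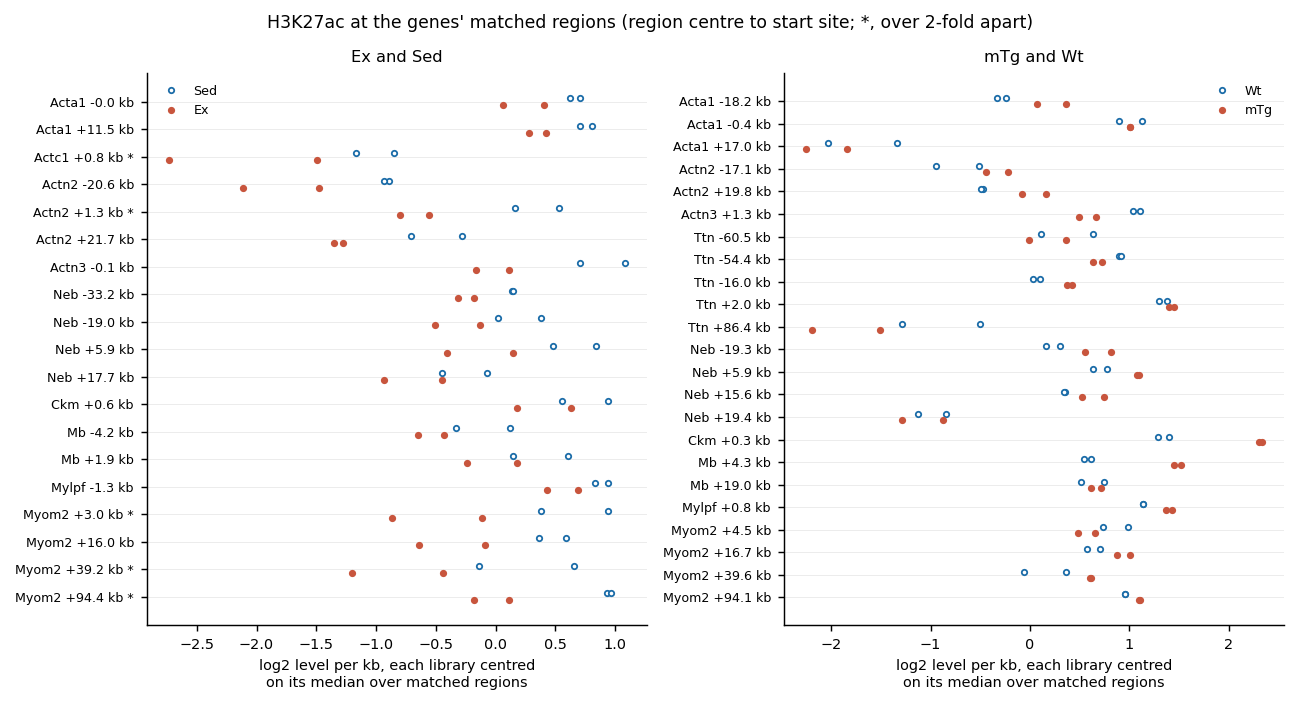
Centered log2 H3K27ac level per kb at each matched region of the genes in the 2 libraries of each group, for Ex (filled) and Sed (open) on the left and mTg (filled) and Wt (open) on the right; labels give the distance from the start site, and asterisks mark regions over 2-fold apart. All 19 regions lay lower in Ex, and 16 of 23 lay higher in mTg (without division by width, 11 of 23 lay lower and the median difference was 0.12).

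The authors' list of regions that lost H3K27ac with exercise (hypo EMR, exercise-modified region) held 9 regions of 4 of the genes. Of the genes' 33 merged Ex and Sed regions, 9 overlapped a hypo EMR (27.3%), against 5.43% of all 42011 merged regions. None overlapped a hyper EMR, against 0.909%. The genes' H3K27ac peaks were wider than most (median 4073 against 1857 bp in Sed), and no share over regions of like width was taken. Because both EMR lists were selected from the same libraries for a difference, the values that follow describe its size and are not independent evidence. All 4 libraries of a list were normalized together, so limma was run across the list, where it called 99.7% of all 2280 hypo EMRs at an adjusted p-value under 0.05.

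Myom2 had 4 of the 9 regions. Its 5' region (chr8:15056197-15067388, intronic) had log2 levels of 9.61 and 9.12 in Ex and 10.69 and 10.19 in Sed and fell by 1.08 (SE 0.21, limma adjusted p = 2.20e-05), a larger fall than 97.8% of the list. The intron with the Myom2 sequence above (chr8:15069266-15078115) had 9.25 and 8.87 in Ex and 10.06 and 9.82 in Sed, and the region past the gene's end (chr8:15149608-15153681) had 8.42 and 8.22 in Ex and 9.28 and 9.26 in Sed. They fell by 0.88 and 0.95. The remaining Myom2 intron region fell by 0.82. In none of the 4 did the groups overlap.

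Ttn, Actn3 and Actn2 made up the rest. The Ttn promoter region (chr2:76974061-76986539), the widest of the 9, had 10.03 and 9.75 in Ex and 10.93 and 10.68 in Sed and fell by 0.91 (limma adjusted p = 0.000161). A pair of Ttn regions in Ccdc141, centered at -53434 and -59951 bp from the Ttn start, fell by 0.86 and 0.82. At Actn3 (chr19:4874121-4880345) the levels were 9.09 and 8.90 in Ex and 9.94 and 9.61 in Sed, a fall by 0.78 (limma adjusted p = 0.000690). At Actn2 (chr13:12337113-12341841) they were 8.25 and 8.11 against 9.08 and 8.75, a fall by 0.74 (limma adjusted p = 0.00105). Without the second Ex library, Actn2 (-0.67) and the Myom2 region from 15095714 (-0.62) were no longer called.

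**Figure D4:**
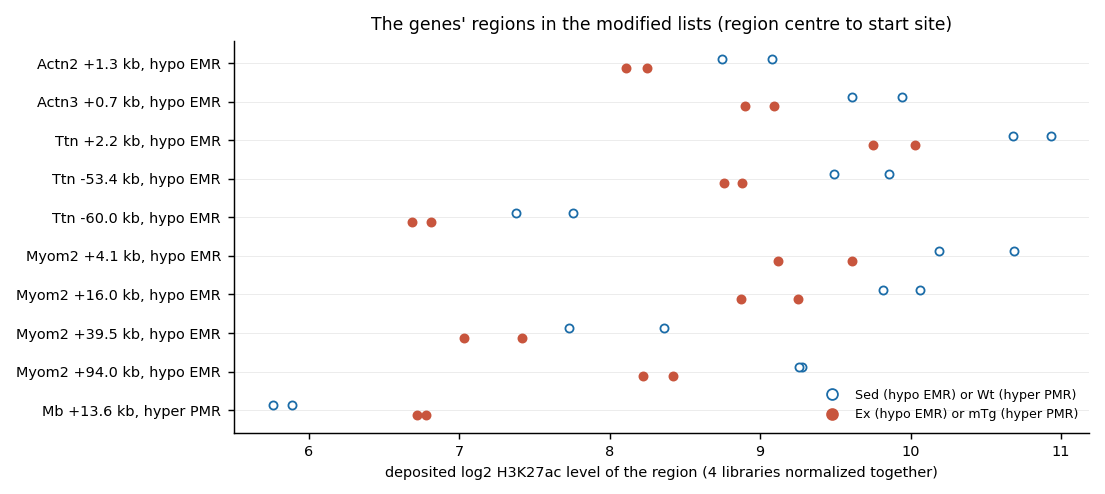
Deposited log2 H3K27ac levels at the 10 regions of the genes in the modified lists, 2 libraries per group, with control libraries open and Ex or mTg libraries filled. Ex lay below Sed at the 9 hypo EMRs, and mTg lay above Wt at the Mb region (6.78 and 6.72 against 5.76 and 5.89).

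Other cell markers moved in the same comparison. The fast marker sum was 4.41 and 3.84 in Sed and 3.35 and 3.19 in Ex, and the slow sum was 0.86 and 1.07 in Sed and 1.71 and 2.05 in Ex. Both sums hold more genes in Ex, since the fast marker Tnnt3 and the slow marker Tnni1 had no peak in Sed. Fibroblast markers (Pdgfra, Col1a1 and Dcn, 3 of 3 with a peak) were at 1.94 and 2.28 in Sed and 3.17 and 3.58 in Ex. Leukocyte markers, of which Cd68 had no peak in Sed, were at -1.77 and -1.44 in Sed and -0.09 and 0.39 in Ex, while endothelial markers were at 3.03 and 2.83 against 3.31 and 3.34. The part of these cells in the lower H3K27ac of the sarcomere genes was not tested.

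H3K4me2 was compared in the same way. None of 14 matched regions was over 2-fold apart (background 0.0925%), 10 were lower in Ex, and the median difference was -0.14 (range -0.68 to 0.81). Without division by width the median was -0.46 and 1 region was over 2-fold apart.

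Sedentary wild-type quadriceps was profiled in 3 groups, which gives the spread between experiments. For H3K27ac, 1 of 25 regions was over 2-fold apart between Quad and Sed (1.07% of all), 0 of 26 between Quad and Wt (1.36%) and 0 of 27 between Sed and Wt (0.495%). The 1 region was Ckm, by 1.09, or 0.29 without division by width because the Sed peak was 11920 bp wide against 6562 bp. For the genes as a whole, Quad was higher than Sed at 22 of 25 regions, with a median difference of 0.36. For H3K4me2 the counts were 0 of 18 between Quad and Sed (0.739%), 1 of 20 between Quad and Wt (2.69%) and 2 of 19 between Sed and Wt (1.78%). They were a Neb region upstream (1.30), a Ckm region (-1.04, and -0.02 without division by width) and a Myom2 intron region (1.09).

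Transgenic and control quadriceps were less than 2-fold apart per kb at each matched H3K27ac region of the genes. The count of 0 of 23 regions over 2-fold apart between mTg and Wt is near the share over all matched regions (4.64%). Replicates did not overlap at 18 of the 23 (63.5% of all). Of the 23, 16 were higher in mTg with a median difference of 0.29, against 0.18 for all matched regions at or above the 90th percentile. Without division by width, 3 were over 2-fold apart, 11 of 23 were lower in mTg and the median was 0.12, 16 of the 23 peaks being narrower in mTg. Ckm differed most in the upward direction, with 2.30 and 2.33 in mTg and 1.40 and 1.29 in Wt, a difference of 0.99, or 0.43 without division by width. Mb came next among the promoter regions, with 1.52 and 1.45 against 0.54 and 0.61 (0.93, or 0.50 without division by width). A distal Ttn region within the gene was lower by -0.93, and Actn3 was lower by -0.48. Slow marker sums were 0.40 and 0.39 in mTg (2 of 5 genes with a peak) and 1.33 and 0.97 in Wt (3 of 5, with Tnnt1). The paper's staining of gastrocnemius found more type I fibers in mTg. Marker sums for fast fibers were 4.93 and 5.03 in mTg and 5.12 and 5.12 in Wt, and those for fibroblasts 1.37 and 1.63 against 2.63 and 2.19. Their part in these differences was not tested. For H3K4me2, 0 of 7 matched regions were over 2-fold apart (0.724%), and mTg had the library of 6.41 M tags named above.

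The Mb locus held the only region of the genes among the PGC1α-modified regions (PMRs). It was 1 of 82 merged regions (1.22%, against 3.27% of all 55876) that overlapped a hyper PMR, and none overlapped a hypo PMR (1.51%). The region chr15:77008175-77010035, intergenic and 13622 bp past the start of Mb, had levels of 6.78 and 6.72 in mTg and 5.76 and 5.89 in Wt and rose by 0.93 (SE 0.12, limma adjusted p = 3.42e-07, with 100% of the list called). It contains the Mb sequence shown above with its half-site. At the gene level, summed over all Mb peaks, mTg stood at 3.39 and 3.40 and Wt at 2.27 and 2.42, while Dia was highest of the 8 groups (3.67 and 3.58) and Ex lowest (1.58 and 1.36). Sol (3.31 and 3.02) and EDL (3.17 and 2.97) did not differ beyond their spread, and neither did Quad (2.37 and 2.41) and Wt, nor Wt and Sed (2.31 and 1.79).

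The Ckm promoter needed a separate look, because the transgene carries it. The H3K27ac peak over the Ckm start in mTg had 8.20 and 8.13 log2 tags per kb, at the top percentile of its list (100), and lay 3.05 and 3.00 above the list median, against 2.27 and 2.23 in Wt. The input library also was high there. It stood 2.17 above the list median in mTg (99.3th percentile of input levels) and 1.48 in Wt (91.0th), and between -0.02 and 0.45 in EDL, Sol, Dia, Sed and Ex, with 1.09 in Quad. High input was not limited to Ckm. At the other genes' strongest H3K27ac peaks, input stood 1.00 to 1.36 above the list median in mTg. In Wt it ran from -1.52 (Actc1) to 2.06 (Mb). At the Ckm promoter, the mTg minus Wt difference was 0.77 for H3K27ac and 0.69 for input. The H3K27ac library exceeded its input there by 3.07 and 3.00 in mTg and by 3.42 and 3.29 in Wt. Reads from the transgene's copies of this promoter and from the endogenous gene cannot be told apart.

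**Figure D5:**
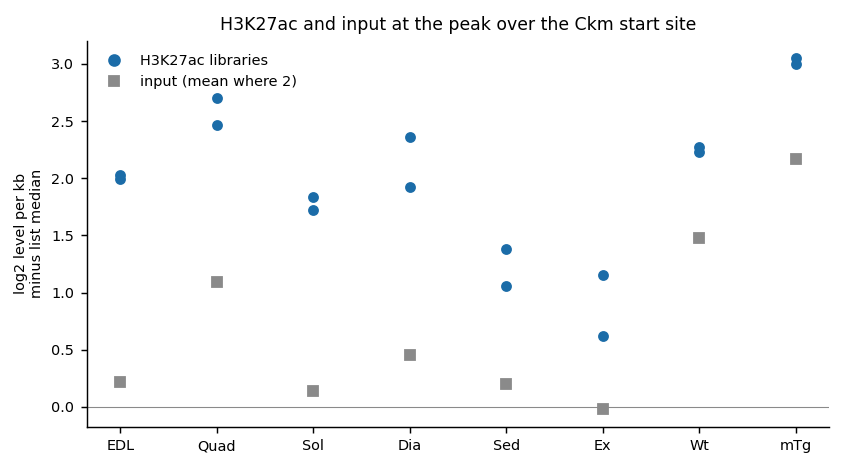
H3K27ac (circles, 2 libraries) and input (squares) levels at the peak over the Ckm start site in the 8 groups, as log2 tags per kb minus the list median. Input was highest in mTg (2.17), followed by Wt (1.48) and Quad (1.09), and was near 0 in Ex (-0.02).

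H3K4me2 at Ckm was split around the start. In Quad, Sol, Dia, Ex and Wt, separate peaks flanked it, with the intronic one the stronger (for example 1.60 and 1.52 above the list median in Quad, against 1.25 and 1.32 upstream). In mTg the called parts were short, with 1001 bp upstream and 627 bp in the intron, and no peak covered the promoter between them. Levels there were -0.61 and -0.05 upstream, and 0.68 and 0.99 in the intron, where input stood at 1.59.

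Readouts other than the histone marks were then set beside the peaks. The genes were chosen with earlier results of these data known, so these overlaps may not be independent of the choice. In Quad, ATAC peaks overlapped 28 of 44 H3K27ac peaks of the genes (63.6%, against 57.2% of all), and every gene had at least 1. Among peaks at least as wide as the genes' median, 22 of 22 of the genes' peaks and 85.9% of all peaks had one. MED1, a Mediator subunit that marks strong enhancers, was found in Quad at 9 of 44 peaks (20.5%, against 3.76% of all), with 9 of 22 among the wide ones (8.23% of all wide peaks). The MED1 and NFAT lists each came from 1 library, so there is no replicate check.

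In Quad, 5 of the 9 MED1 peaks were at start sites. They lay within 141 bp of the start of Acta1 (score 29.4, percentile 99.5), Ckm (17.9, 97.6), Ttn (15.3, 96.0), Actn3 (13.4, 94.1) and Myom2 (10.9, 89.4). At Neb, whose start had no histone peak, MED1 and ATAC peaks lay about 3084 and 3000 bp into the gene. At Mb, a MED1 peak in Sol (18.1, 96.9th percentile) overlapped the first bases of the Mb sequence with E-boxes and half-sites shown above, before its capitals, and the Quad MED1 peak (6.39, 35.1th) did not. In the other muscles MED1 overlapped 3 of 45 peaks in EDL (1.12% of all), 3 of 41 in Sol (5.34%) and 5 of 43 in Dia (4.16%). NFAT, a calcium-dependent factor linked to slow fiber genes, overlapped 0 of 44 peaks in Quad (0.0464%) and 3 of 41 in Sol (3.02%), at Acta1, Actn2 and Ttn. The Actn2 NFAT peak in Sol was among the strongest of its list (24.5, percentile 99.3).

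Short words known from muscle promoters were counted in the 9 RefSeq promoter windows of 7 of the genes (250 bases before to 50 after the start). The set of promoter windows held no entry for Actn3, Neb or Myom2. The E-box CAGCTG was in 5 of the 9 windows (Acta1, Ckm, Mb and Mylpf), against 16.3% of all 32851 windows. The CArG box of SRF, which reads CC, then 6 bases of A or T, then GG, was in 2 windows (the actins Acta1 and Actc1), against 1.63% of all. CATTCC was in 2 (Acta1 and Ttn, 14.7% of all), the half-site AGGTCA in 3 (Actn2 and Mb, 16.3%), TCAGGTT in 1 (Actn2, 4.07%) and MEF2 in 1 (Ttn, 0.557%). A match is a string of letters and not a bound site.

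In the 44 Quad ATAC peaks of the genes, of a median length of 195 bp in the whole list, CAGCTG was in 12 (21.1% of all 44911), AGGTCA in 8 (7171 of all), CATTCC in 6 (11.5%), MEF2 in 3 (2.07%), and the CArG box (1.09%) and TCAGGTT (3.21%) in 2 each. The Myom2 sequence above held 2 E-boxes and 3 CATTCC words.

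Other genes of the sarcomere and of creatine kinase, 40 in a list made by function, were given the same look. Of the 38 with a H3K27ac peak in Ex or Sed, 13 had a hypo EMR (34.2%, against 10.6% of all genes), beside 4 of the 10 genes here, and none had a hyper EMR (2.34%). The largest differences were at the M-band gene Myom1 (-0.95), the myosin light chain kinase gene Mylk2 (-0.93) and the fast myosin-binding protein gene Mybpc2 (-0.88). In mTg, 4 of 38 had a hyper PMR (9.22% of all genes), among them Myom3 (0.84), a myomesin of slow fibers, and Smyd1 (0.73), and 1 had a hypo PMR, Mylk2 (-1.03; 4.38% of all). These lists too were selected for a difference, and the shares were not matched for the number of peaks per gene.

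Gene-level H3K27ac, the log2 sum over all peaks named for a gene and centered on 9066 genes with a peak in every group, varied by 1.46 (Neb) to 3.76 (Mylpf) over the 8 groups for the 9 genes that had peaks in all of them. The Mylpf value rests on the Ex list, where its promoter peak is named for a neighbor. The genes with the nearest profiles, by Euclidean distance over the 8 groups, were Ywhae, Cib2 and Pgm2 for Actn3 (0.22 to 0.47, against a median of 2.82 over all genes) and Tmem233, Myo5c and Golga7b for Myom2 (0.49 to 0.52, median 2.72). All 6 were lower in Sol than in Quad, by -2.03 to -2.64, and lower in Ex than in Sed. They were picked for nearness over these same groups, so the shared direction follows from the choice. Neb was nearest to Tmem178 (0.11), Magix and Gucd1, Acta1 to Miga1, Cmya5 and Pde4dip (0.23 each), and Ttn to Mir7117, Syngr2 and Slc16a8. Ckm was nearest to Ano5, Neurl1a and Scn4b, and Mylpf to Best3, Gm20743 and Apoo. Mb was nearest to Fgf1 (0.40), Acy1 and Smtnl1, and Actn2 to Ppargc1a (0.57), B3galt2 and Gm20735. Ppargc1a is the gene that the mTg transgene carries, and reads of transgene and endogenous gene were not separated.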

How the data were processed

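ChIP-seq for H3K27ac and H3K4me2 was performed on muscle, with 2 libraries per mark in each of 8 groups and 11 inputs, and MED1 and NFAT were profiled with 1 library per muscle. Per the labels, reads were aligned with Bowtie 1.2 to mm10 and processed with HOMER (the submitters' processing notes also name mm9). The deposited histone lists hold log2 tag levels that the authors regularized within each list, peaks being called over both replicates against input. The authors' adjusted p-value and log2 fold over input served here as filters only, and no value of their group comparisons was used. The Quad ATAC list holds a signal that the authors scaled to total tags after pooling the control libraries. The MED1 and NFAT lists hold the peak score of the authors' caller, whose scale the headers do not state. Intervals of exercised and transgenic ATAC libraries and footprints, whose build is another or unstated, were not used here.

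From these files, levels were divided by region width in kb (log2 scale), and percentiles were taken within each list. Lists were compared by matched regions, since each was normalized on its own, with no test. In the lists of modified regions, limma (version 3.58.1, R 4.3.3; Python 3.11.15, pandas 2.3.3, numpy 2.4.6 for the rest) was fitted across each list without a block, with Benjamini-Hochberg adjustment over the list and a threshold of 0.05. Tested on simulated data with 200 regions shifted by 1 on the log2 scale, it recovered 94.0% of them among 2280 for the hypo EMR list and called 0.481% of the others. For the hyper PMR list of 1828 regions it recovered 100% of 200 and called 0.921%. Most simulated regions had no difference, whereas the real lists hold only regions selected for one. These rates thus do not describe the calls reported here. The genes and lists were chosen with earlier results of these data known. All 10 genes were named, with the 3 largest differences per modified list among 40 other sarcomere genes (1 of which is not reported here), and the 3 nearest profiles for genes whose level ranged over 1 or more. Total tags ranged from 6.41 M to 24.2 M per ChIP library, and low depth widens the error of levels. Alternatives to the overlap, width, fold, peak threshold, block and replicates were tried.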

Additional observations from a re-analysis of the deposited data

How the results depend on the processing

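Among the modified regions, where limma calls nearly the whole list, Actn2 (-0.67) and the Myom2 region from 15095714 (-0.62) lost their call without Ex replicate 2, in a limma fit that takes the lone library to vary like the other group. An adjusted p-value under 0.001 in the peak lists left 212 of 359 H3K27ac and 174 of 341 H3K4me2 peaks. The level of the strongest H3K4me2 peak (6.31) lay between 6.37 and 6.39 with 1 replicate left out. Of 165 alternative values, 40 moved beyond the limits set (a count by over 1.5 times), most of them counts of regions over 2-fold apart. For H3K27ac, the 14 between muscles became 2 at 80% overlap, 28 without division by width, 42 at 1.5-fold and 14 to 22 with 1 replicate left out (22 without the first replicate of the second group). The 5 between Ex and Sed became 1, 14, 10 and 0 to 9, the 0 between mTg and Wt became 3 without division by width, 3 at 1.5-fold and 0 to 2, and the 1 among sedentary Quad groups became 0, 0, 3 and 0 to 2. For H3K4me2, the 2 between muscles became 0, 21, 24 and 2 to 3. The 0 between Ex and Sed became 1 without division by width, 2 at 1.5-fold and 0 to 1, as did the 0 between mTg and Wt (1, 2 and 0 to 1), and the 3 among sedentary Quad groups became 1, 10, 17 and 2 to 6. Counts at 80% overlap rest on fewer matched regions, for H3K27ac 4 of 19 between Ex and Sed. The causes of the other shifts were not tested.

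Same-numbered replicates share only a number, and their deviations correlated at 0.14, 0.11, -0.04 and -0.24 in the 4 modified lists. With the replicate block, limma called 382, 2280, 1828 and 844 regions, against 381, 2274, 1828 and 844 without it, and 9, 1, 0 and 0 regions of the genes in the hypo EMR, hyper PMR, hyper EMR and hypo PMR lists as before. The stricter adjusted p-value for modified regions was not run, since the authors' comparison columns were not used. The lowest depth, 6.41 M tags, was in mTg H3K4me2, where 7 regions were matched.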
